A study of Mus musculus with 18 samples.

Results

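The genes described here are 10 mouse genes of cytokine feedback, survival and stress signalling: *Socs1*, *Socs3*, *Cish*, *Pim1*, *Stat3*, *Bcl2*, *Mcl1*, *Dusp1*, *Gadd45a* and *Gadd45b*. All 10 were found among 22358 protein-coding genes of the mm9 annotation, and each locus was taken as the gene span with 20 kb on either side. Across the genome 106128 regions were bound by at least 1 of 3 transcription factors at some time, and 140 of them lay in these 10 loci.

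The occupancy of the 3 factors, C/EBPα, C/EBPβ and the ETS factor PU.1, was measured by ChIP-seq in C10 cells, a pre-B cell clone derived from the HAFTL line that carries C/EBPα fused to the hormone-binding part of the estrogen receptor (C/EBPαER) and a GFP tag. β-estradiol moves the fusion protein into the nucleus, and the cells then turn into macrophage-like cells over the time course. According to the labels, induced cells received β-estradiol at 100 nM together with the cytokines IL-3 and CSF-1, and control cells received the solvent ethanol. All libraries came from cells that carry the transgene, so C/EBPα reads include those of the fusion protein. The 8 C/EBPα libraries covered 0 hours post-induction (hpi), 10, 30 and 60 min, and 3, 12, 24 and 48 hpi, and the 5 libraries each of C/EBPβ and PU.1 covered 0, 3, 12, 24 and 48 hpi. Each factor and time point had 1 library and no input control, so no difference below has a replicate check and no test between conditions was made. IL-3 and CSF-1 signal through the pathways that several of these genes belong to, and the effect of time, of hormone and of cytokines cannot be told apart in this design. The C/EBPα libraries of 10, 30 and 60 min were read on another sequencer than the rest, which cannot be told apart from time either.

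Cytokine receptors without kinase activity of their own work through JAK kinases, which phosphorylate STAT transcription factors. STATs then switch on genes of the SOCS family, whose proteins bind receptors or JAKs and dampen the signal, and survival genes such as *Pim1*, *Bcl2* and *Mcl1*. C/EBP proteins and PU.1 bind distal enhancers of myeloid cells, often side by side, and PU.1 is also present in B-lineage cells. No expression data were analysed here, so binding near a gene says nothing of its transcript, and the cell type could not be checked against marker levels.

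Values below are normalised reads: the reads whose fragment centre fell within 100 bp of a site's centre, scaled to 10000000 reads of the library. Intervals are exact 95% Poisson or, for ratios, exact binomial intervals. They cover counting error only. The PU.1 libraries held 6574957 to 11349498 reads, those of C/EBPβ 2901164 to 5843194 and those of C/EBPα 5968544 to 24909437, and calling a site took 7 to 15 reads. This came to 6.02 normalised reads at 10 min of C/EBPα, the deepest library, and to 24.1 in the C/EBPβ library of 12 hpi, the shallowest, so that a weak C/EBPβ site at 12 hpi was not detectable. A site counted as higher or lower between times when the ratio was at least 2-fold and its interval left out 1. Sites are named by their distance from the annotated gene start, with negative values upstream. Values over time are listed in the order of sampling: 0 hpi, 10, 30 and 60 min, 3, 12, 24 and 48 hpi for C/EBPα, and 0, 3, 12, 24 and 48 hpi for C/EBPβ and PU.1.

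For each locus the reference sequence of the site with most C/EBPα reads is shown, since these sites carry the time courses described below. The one in *Gadd45a* overlaps an untranslated region and is not printed. The PU.1 site 258 bp from the strongest *Socs3* site is added. Each line is the plus strand of mm9, 5′ to 3′, and capitals mark matches on either strand to TTGCNNAA (C/EBP), GAGGAAGT (PU.1), TTCNNNGAA (the STAT dimer motif) or TGANTCA (AP-1).
*Socs1* +2.4 kb (chr16:10783136-10783335): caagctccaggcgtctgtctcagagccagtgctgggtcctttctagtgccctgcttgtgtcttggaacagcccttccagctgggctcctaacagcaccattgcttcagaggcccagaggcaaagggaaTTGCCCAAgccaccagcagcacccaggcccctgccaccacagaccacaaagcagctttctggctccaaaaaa
*Socs3* +23.5 kb (chr11:117807756-117807955): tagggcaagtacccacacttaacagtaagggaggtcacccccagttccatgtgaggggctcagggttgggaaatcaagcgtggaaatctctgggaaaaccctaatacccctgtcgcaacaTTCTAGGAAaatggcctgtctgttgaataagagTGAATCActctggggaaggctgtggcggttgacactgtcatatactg
*Socs3* +23.2 kb (chr11:117808014-117808213): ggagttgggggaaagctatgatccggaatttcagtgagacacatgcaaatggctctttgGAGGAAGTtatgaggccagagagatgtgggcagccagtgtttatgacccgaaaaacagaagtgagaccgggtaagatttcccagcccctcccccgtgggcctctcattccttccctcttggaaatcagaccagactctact
*Cish* -15.4 kb (chr9:107182903-107183102): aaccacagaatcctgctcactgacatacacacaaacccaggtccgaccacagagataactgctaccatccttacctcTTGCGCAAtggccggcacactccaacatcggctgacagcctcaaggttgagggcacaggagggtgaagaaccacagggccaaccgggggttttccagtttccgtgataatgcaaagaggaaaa
*Pim1* +10.2 kb (chr17:29637818-29638017): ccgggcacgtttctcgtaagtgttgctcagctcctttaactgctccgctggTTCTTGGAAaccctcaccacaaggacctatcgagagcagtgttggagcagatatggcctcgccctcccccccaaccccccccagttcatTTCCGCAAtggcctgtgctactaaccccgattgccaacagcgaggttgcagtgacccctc
*Stat3* -12.5 kb (chr11:100813268-100813467): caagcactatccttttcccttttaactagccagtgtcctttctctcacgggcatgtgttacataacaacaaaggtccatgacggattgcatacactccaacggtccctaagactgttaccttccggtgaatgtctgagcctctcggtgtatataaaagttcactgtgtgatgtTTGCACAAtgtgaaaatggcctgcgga
*Bcl2* +187.2 kb (chr1:108423512-108423711): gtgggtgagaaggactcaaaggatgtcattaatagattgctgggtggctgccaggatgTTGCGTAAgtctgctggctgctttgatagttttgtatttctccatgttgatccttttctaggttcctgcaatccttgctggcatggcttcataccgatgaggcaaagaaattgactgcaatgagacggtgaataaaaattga
*Mcl1* -7.9 kb (chr3:95454614-95454813): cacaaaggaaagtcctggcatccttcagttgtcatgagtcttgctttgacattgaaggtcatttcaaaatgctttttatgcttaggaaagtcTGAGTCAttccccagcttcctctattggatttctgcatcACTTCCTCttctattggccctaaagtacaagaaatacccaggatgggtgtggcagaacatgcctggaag
*Dusp1* -4.1 kb (chr17:26649480-26649679): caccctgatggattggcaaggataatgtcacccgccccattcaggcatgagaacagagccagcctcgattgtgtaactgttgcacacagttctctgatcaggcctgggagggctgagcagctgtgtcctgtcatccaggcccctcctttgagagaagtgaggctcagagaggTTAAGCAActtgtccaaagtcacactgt
*Gadd45b* +5.4 kb (chr10:80398113-80398312): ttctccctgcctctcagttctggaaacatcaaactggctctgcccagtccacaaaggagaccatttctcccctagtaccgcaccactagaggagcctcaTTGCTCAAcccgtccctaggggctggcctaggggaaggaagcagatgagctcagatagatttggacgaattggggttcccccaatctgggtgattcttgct

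A C/EBP match is present in 7 of these 10 windows, a PU.1 match in those of *Socs3* +23.2 kb and *Mcl1* -7.9 kb, and a STAT match in those of *Socs3* +23.5 kb and *Pim1* +10.2 kb. Over all C/EBPα sites of the 10 loci, the share with a C/EBP match was 27.3%, against 30.6% of all C/EBPα sites in the genome. A match is a run of letters and not a measured contact.

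Binding by C/EBPα was nearly absent from the 10 loci before induction and built up within the first hour. It was called at 2, 14, 20, 33, 35, 36, 33 and 21 sites over the 8 times, with the 2 sites of 0 hpi both in *Gadd45b*. C/EBPβ, first measured after induction at 3 hpi and in shallower libraries, had 2, 11, 12, 20 and 36 called sites, and PU.1 was present from the start, with 36, 45, 76, 68 and 63. Over the whole genome C/EBPα was called at 3066, 23183, 13181 and 9055 sites at 0, 3, 12 and 48 hpi. C/EBPβ was called at 1276 and 15819 sites of the genome at 0 and 48 hpi. PU.1 was called at 33050, 60638 and 42869 at 0, 12 and 48 hpi. With reads thinned to the shallowest library of the factor, C/EBPβ had 21 sites in the 10 loci at 48 hpi and each C/EBP factor 1 at 0 hpi. C/EBPα then had 28 at 3 hpi and 16 at 48 hpi, and PU.1 had 35 at 0 hpi and 50 at 48 hpi. The number of loci with a called C/EBPα site went from 1 of 10 at 0 hpi, against 15.3% of all 22358 protein-coding loci, to 10 of 10 at 3 hpi, against 48.1%, and 8 of 10 at 48 hpi, against 32.5%. *Cish* and *Pim1* had none at 48 hpi. All 10 loci had a C/EBPβ site at 48 hpi (42.4% of all loci) and 8 of 10 had a PU.1 site at 0 hpi (63.5%), the exceptions being *Cish* and *Dusp1*. At any time, every member locus held sites of all 3 factors, where 62.8% of all loci had a C/EBPα site, 45.4% a C/EBPβ site and 78.3% a PU.1 site.

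**Figure D1:**
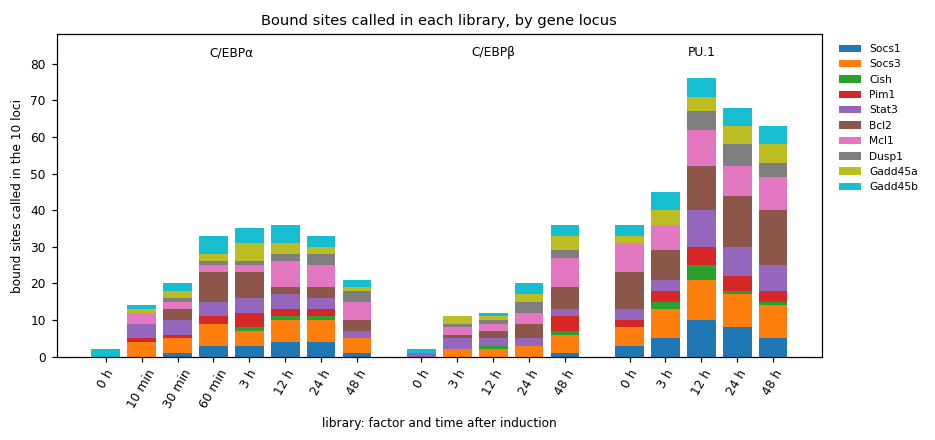
Number of bound sites called in the 10 loci in each of the 18 libraries (y axis), stacked by gene and ordered by factor and time (x axis). C/EBPα bars climb from 2 sites at 0 hpi to 36 at 12 hpi and drop to 21 at 48 hpi, C/EBPβ bars climb to 36 at 48 hpi, and PU.1 bars start at 36.

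These loci were dense in sites: they held 21.2 per 100 kb, where all protein-coding loci had 6.98, and the median locus had 13.5 sites against 4. The 10 genes were chosen with earlier results of these data known, and the part of that choice in the excess was not tested. The density for C/EBPα alone was 10.0 against 2.70 per 100 kb, for C/EBPβ 6.07 against 1.25 and for PU.1 15.2 against 5.25. Of the 140 sites, 66 were called for C/EBPα (47.1%, against 38.9% of all sites), 40 for C/EBPβ (28.6%, against 18.2%) and 100 for PU.1 (71.4%, against 73.8%), and 33 for both C/EBPα and PU.1 (23.6%, against 15.6% of all sites in the genome). Most sites were intergenic (75) or intronic (47), and 18 lay within 1 kb of a member's start. The annotated start nearest to the site was that of the member for 122 sites, so for the others another gene may be the closer neighbour. In 37 sites the call rested on 1 library (26.4%, against 33.1% of all sites).

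Read over all 140 sites together, the pooled log2 ratio of C/EBPα reads was 2.14 (1.98 to 2.31) from 0 to 3 hpi and -0.78 (-0.90 to -0.66) from 3 to 48 hpi. That of C/EBPβ from 0 to 48 hpi was 2.17 (1.93 to 2.40), and that of PU.1 was 0.56 (0.46 to 0.67). Strong sites weigh most in these pooled values, and the median of the log2 ratios of single sites was smaller in size. For C/EBPα it was 0.92 from 0 to 3 hpi, against 0.57 over all sites in the genome, and -0.13 from 3 to 48 hpi, against -0.25. From 0 to 48 hpi it was 1.34 for C/EBPβ, against 0.49, and 0.44 for PU.1, against 0.08. Sites were called in these same libraries, so a site can be listed because a compared library is high there. The part of this in the ratios and in the counts below was not tested. All these medians and shares are over sites of any factor. More of the member sites were called for C/EBPα (47.1%, against 38.9% of all sites) and for C/EBPβ (28.6%, against 18.2%). Fewer were called for PU.1 alone (46.4%, against 56.8%). The part of this mix in the differences from the genome, here and below, was not tested. Site by site, C/EBPα was higher at 60 min than at 0 hpi at 27 of 140 sites (19.3%, against 16.8% of all sites), a share near the background. At 3 hpi it was higher than at 0 hpi at 35 sites (25.0%, against 17.6%). From 3 to 48 hpi C/EBPα was lower at 23 sites (16.4%, against 13.2%) and higher at 6 (4.29%, against 2.59%), and compared with 0 hpi it was higher at 48 hpi at 21 (15.0%, against 7.90%). C/EBPβ was higher at 48 than at 0 hpi at 28 sites (20%, against 10.9%). PU.1 was higher at 48 than at 0 hpi at 25 sites (17.9%, against 11.8%) and lower at 5 (3.57%, against 8.40%).

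**Figure D2:**
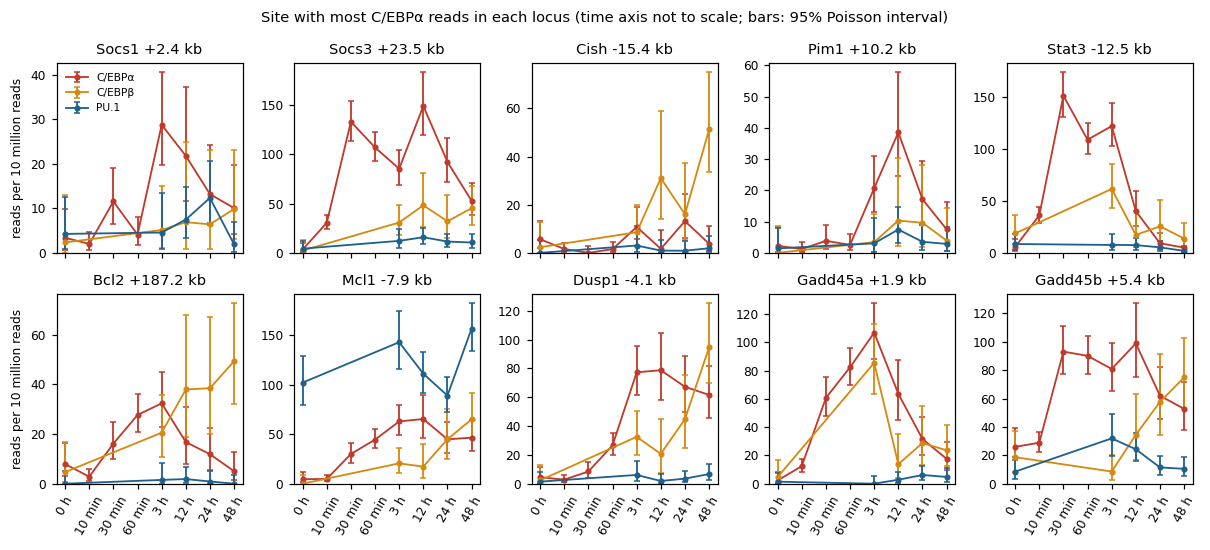
Normalised reads (y axis, from 0, with a scale of its own in each panel) at the site with most C/EBPα reads in each of the 10 loci, over the sampled times (x axis, not to scale), for C/EBPα, C/EBPβ and PU.1, with 95% Poisson intervals. C/EBPα rises and falls at the sites of *Stat3*, *Gadd45a* and *Bcl2*, stays up to 48 hpi at those of *Dusp1* and *Mcl1*, and PU.1 is high from 0 hpi at *Mcl1* -7.9 kb.

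*Socs3* encodes the inhibitor that binds the shared receptor chain of the interleukin-6 family and the G-CSF receptor. Its locus (chr11:117807393-117851361) held 21 sites, 10 of C/EBPα, 6 of C/EBPβ and 15 of PU.1. The strongest C/EBPα site lay downstream at +23.5 kb, close to the locus border, with 3.38, 30.5, 133, 107, 85.4, 149, 92.3 and 52.8 normalised C/EBPα reads. The signal reached 133 by 30 min and stayed between 52.8 and 149 after that, and the value at 60 min was 31.6 (10.7 to 155) times that of 0 hpi. C/EBPβ read 2.34, 30.8, 48.3, 32.0 and 45.3, and was higher at 48 than at 0 hpi by 19.4 (3.15 to 799.6) fold.

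The neighbouring *Socs3* +23.2 kb site carried PU.1 before induction. PU.1 there read 80.8, 114, 56.9, 59.9 and 38.2, a value at 48 hpi of 0.473 (0.307 to 0.721) times that of 0 hpi. C/EBPα in this window read 7.89, 10.4, 37.7, 27.6, 38.6, 87.1, 36.9 and 17.6, and the part of the neighbouring C/EBPα peak in these values was not tested. PU.1 was thus called next to the C/EBPα site before induction, was highest at 3 hpi and was lower at 48 than at 0 hpi. A link between the factors was not tested.

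*Socs3* -17.3 kb, in an intron of the neighbouring gene *Pgs1*, differed in its course. C/EBPα read 6.77, 6.02, 43.1, 54.8, 53.9, 46.9, 59.3 and 55.3 and stayed between 43.1 and 59.3 from 30 min on. The ratio of 48 to 3 hpi was 1.03 (0.679 to 1.54). It was also the strongest C/EBPβ site of the locus, with 9.34, 17.1, 3.45, 32.0 and 55.2. At *Socs3* +15.7 kb, by contrast, C/EBPα read 4.51, 19.3, 63.8, 68.6, 32.4, 58.6, 31.6 and 12.6 and was lower at 48 than at 3 hpi, at 0.389 (0.172 to 0.799) times, while C/EBPβ went from 4.67 and 10.3 at 0 and 3 hpi to 31.5 (18 to 51.2) at 48 hpi.

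Both PU.1 and C/EBPα were called in the middle of the *Socs3* locus. At +9.9 kb PU.1 read 25.5, 47.1, 114, 66.1 and 30.6 and C/EBPα 2.26, 5.22, 22.3, 12.8, 8.09, 20.1, 15.8 and 6.29. At +11.7 kb PU.1 read 11.3, 18.3, 72.8, 56.4 and 35.4 and was higher at 48 than at 0 hpi, 3.12 (1.43 to 7.75) fold. PU.1 at both sites was highest in the 12 hpi library. Close to the gene start there was little: +0.4 kb was called for PU.1 at 12 hpi alone (17.7), and +0.8 kb for C/EBPα at 12 hpi alone (18.4).

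*Socs1* encodes a direct inhibitor of JAK kinases that limits interferon signalling. Its locus (chr16:10763901-10805629), which also contains the protamine genes *Prm1*, *Prm2* and *Prm3*, held 14 sites, 6 of C/EBPα, 1 of C/EBPβ and 12 of PU.1. The strongest C/EBPα site, +2.4 kb, was weak beside those of *Socs3*: 3.38, 2.01, 11.5, 4.09, 28.8, 21.8, 13.2 and 10.1 normalised reads. The value at 3 hpi was 8.5 (2.66 to 43.4) times that of 0 hpi. By 48 hpi it was 0.350 (0.139 to 0.775) times that of 3 hpi.

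The highest PU.1 values of *Socs1* were at +14.4 kb, where it read 76.6, 68.4, 42.9, 23.8 and 62.1 with at most 2.05 normalised C/EBPα reads at any time. The 48 hpi value there was 0.811 (0.557 to 1.19) times that of 0 hpi, with lower values between. The only PU.1 site of *Socs1* higher at 48 than at 0 hpi was -14.3 kb, with 1.42, 4.56, 19.6, 8.81 and 24.8. Its single C/EBPβ site, -0.8 kb, was called at 48 hpi with 17.7 (8.11 to 33.7) normalised reads.

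Close to the *Socs1* start, 5 weak sites lay between +0.9 and -0.8 kb. PU.1 at -0.2 kb read 2.84, 16.7, 26.1, 15.9 and 3.82, PU.1 at +0.5 kb 7.09, 9.13, 21.5, 14.1 and 6.69 and PU.1 at +0.9 kb, in the coding exon, 7.09, 0, 12.1, 20.3 and 4.78. C/EBPα at -0.5 kb read 3.38, 2.81, 3.85, 4.09, 1.80, 16.8, 14.5 and 8.80. Each of these 4 courses was highest at 12 or 24 hpi and lower at 48 hpi.

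*Cish* encodes CIS, an inhibitor of receptors that activate STAT5, among them the IL-3 receptor. Its locus (chr9:107178357-107225115) was the poorest of the 10, with 5 sites, 2 of C/EBPα, 1 of C/EBPβ and 4 of PU.1. The strongest, -15.4 kb, lay in a coding exon of *Mapkapk3*, a kinase gene activated downstream of p38, and was called for C/EBPα at 3 and 24 hpi and for C/EBPβ at 12 and 48 hpi. C/EBPβ read 2.34, 8.56, 31.0, 16 and 51.2 there and C/EBPα 5.64, 1.61, 0, 1.54, 10.8, 1.68, 13.2 and 3.77. The C/EBPβ value of 48 hpi was 21.9 (3.60 to 899.6) times that of 0 hpi, the only change from 0 hpi in C/EBPβ called in this locus.

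The *Cish* window at +0.7 kb, which overlaps an untranslated region, held 4 STAT motif matches, more than any other of the 140 sites. C/EBPα was called there at 12 hpi with 11.7 (4.72 to 24.2) and PU.1 at 12 hpi with 9.33 (4.48 to 17.2), both near the limit of detection. These values, counted at the merged centre of the site, lie under the 15.1 and 10.3 normalised reads that a call took. The PU.1 site with most reads, +2.0 kb, read 5.67, 13.7, 18.7, 7.05 and 10.5.

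**Figure D3:**
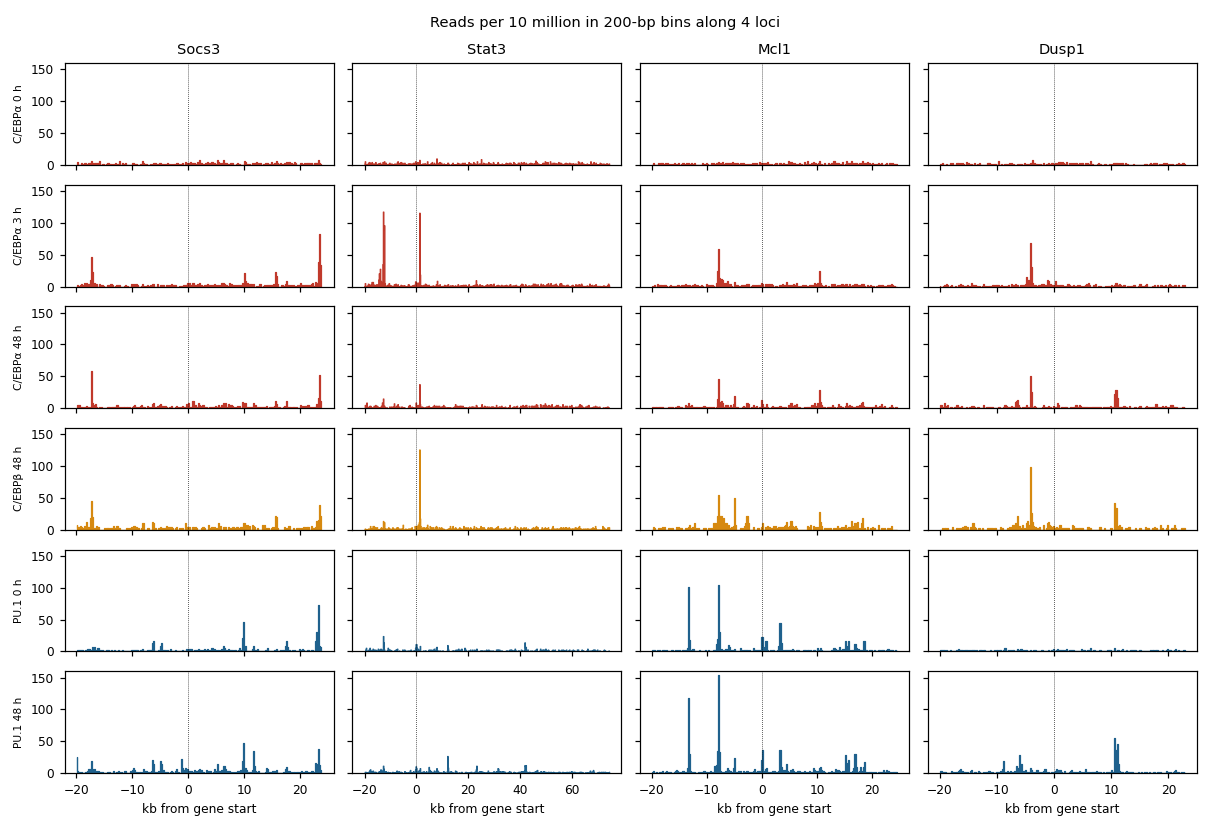
Normalised reads in 200-bp bins (y axis, 0 to 160) against distance from the gene start in kb (x axis, positive downstream) along 4 loci, 1 column per gene, with rows for C/EBPα at 0, 3 and 48 hpi, C/EBPβ at 48 hpi and PU.1 at 0 and 48 hpi. C/EBPα is flat at 0 hpi in all 4, the upstream *Stat3* peaks of 3 hpi are much lower at 48 hpi, when -12.8 kb was still called, those of *Mcl1* and *Dusp1* persist, and PU.1 at *Dusp1* appears only after induction.

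*Stat3* encodes the transcription factor that carries interleukin-6, interleukin-10 and G-CSF signals to the nucleus. Its locus (chr11:100726412-100820854) held 13 sites, 7 of C/EBPα, 3 of C/EBPβ and 11 of PU.1, with a C/EBPα signal upstream that rose early and fell away. At -12.5 kb, between *Stat3* and *Ptrf*, C/EBPα read 5.64, 36.1, 152, 109, 122, 40.2, 9.23 and 5.03. The value at 60 min was 19.3 (8.16 to 60.2) times that of 0 hpi. The value at 48 hpi was 0.0411 (0.0111 to 0.108) times that of 3 hpi, back within the interval of the 0 hpi value, 5.64 (1.83 to 13.2). C/EBPβ was also highest at 3 hpi, with 18.7, 61.6, 17.2, 25.6 and 13.8.

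The adjacent *Stat3* -12.8 kb site, 331 bp away, carried C/EBPα at 3.38, 55.0, 147, 102, 125, 97.2, 25.1 and 15.1, and was the strongest PU.1 site of the locus. PU.1 there read 25.5, 71.5, 22.4, 17.6 and 10.5. It was higher at 3 than at 0 hpi, 2.80 (1.6 to 5.12) fold, and at 48 hpi 0.412 (0.176 to 0.921) times the value of 0 hpi. All 3 factors were thus higher at 3 hpi than at 48 hpi on this stretch. The windows of these neighbours do not overlap. A further site at -14.0 kb was called for C/EBPα at 10 and 60 min, and C/EBPα there read 2.26, 16.1, 36.9, 44.5, 34.2, 20.1, 5.27 and 1.26.

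A different course was seen in an intron of *Stat3*, at +1.2 kb. C/EBPα read 9.02, 23.7, 90, 101, 117, 57.0, 39.6 and 41.5 and C/EBPβ 14.0, 66.7, 27.6, 96.1 and 130.1. C/EBPα at 48 hpi was 0.355 (0.235 to 0.524) times the 3 hpi value but remained called, and C/EBPβ at 48 hpi was the highest C/EBPβ value of all 140 sites. Its ratio to that of *Gadd45b* +3.8 kb was 1.16 (0.80 to 1.68), within counting error. PU.1 stayed at or under 10.6 at *Stat3* +1.2 kb. At the gene start, -0.1 kb, PU.1 read 9.93, 10.6, 25.2, 9.69 and 10.5, and C/EBPα was called at 12 and 24 hpi, with 20.1 (10.4 to 35.1) at 12 hpi. Of the PU.1 sites along the gene body, +12.0 kb was higher at 48 than at 0 hpi, with a ratio of 2.98 (1.29 to 8.03).

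*Pim1* encodes a serine/threonine kinase that is induced by STAT signalling and favours survival. Its locus (chr17:29607757-29652390) held 11 sites, 5 of C/EBPα, 4 of C/EBPβ and 7 of PU.1, and none of its C/EBPα sites was called at 48 hpi. The strongest, +10.2 kb, read 2.26, 1.2, 3.85, 2.56, 20.7, 38.5, 17.1 and 7.54 and was higher at 3 than at 0 hpi, 9.16 (2.26 to 80.2) fold. At -1.6 kb C/EBPα came early and weakly, with 2.26, 10.0, 13.1, 8.19, 9.89, 3.35, 3.96 and 8.80.

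*Pim1* -4.8 kb, in an intron of the gene model *Gm16912*, was bound by C/EBPβ at the last time alone. C/EBPβ there read 2.34, 0, 3.45, 6.40 and 55.2, so that the 48 hpi value was 23.6 (3.91 to 966) times that of 0 hpi, while C/EBPα stayed between 1.54 and 6.59 over all 8 times. Reads of different antibodies are on scales of their own and were not compared as occupancy. PU.1 changed little in *Pim1*. It read 35.5, 27.4, 42.9, 30.8 and 42.0 at +20.2 kb and 32.6, 36.5, 20.5, 26.4 and 26.8 at +7.4 kb, and no site of the locus was higher or lower at 48 than at 0 hpi.

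*Bcl2* encodes the founding member of the anti-apoptotic proteins, long known from lymphoid cells. Its locus (chr1:108414755-108630851), the longest of the 10 at 216 kb, held 24 sites, 16 of them of PU.1. PU.1 was higher at 48 than at 0 hpi at 7 of 24 sites, against 11.8% of all sites in the genome. It was lower at 2, against 8.40%. At +132.3 kb PU.1 read 26.9, 24.3, 72.8, 75.8 and 137, a ratio of 48 to 0 hpi of 5.07 (3.13 to 8.67). At +85.8 kb it read 9.93, 12.2, 35.5, 35.2 and 83.1, a ratio of 8.37 (3.90 to 21.4). At +161.2 kb it fell, with 85.1, 71.5, 41.1, 46.7 and 24.8 and a ratio of 0.292 (0.177 to 0.470). These 3 windows held at most 5.03 normalised C/EBPα reads at any time, so PU.1 went up and down at them with C/EBPα under the level of a call.

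C/EBPα sites in *Bcl2* were weak and mostly passing. The strongest, +187.2 kb, lies beyond the gene's end and read 7.89, 2.81, 16.2, 27.6, 32.4, 16.8, 11.9 and 5.03. C/EBPα at 48 hpi was 0.155 (0.0402 to 0.434) times the 3 hpi value, while C/EBPβ read 20.5 (10.6 to 35.9) at 3 hpi and 49.3 (31.9 to 72.7) at 48 hpi. At +51.1 kb C/EBPα read 0, 0.803, 8.46, 14.8, 18.9, 1.68, 0 and 0 and at +49.2 kb 0, 2.01, 3.85, 15.4, 13.5, 3.35, 0 and 2.51, so both were called at 60 min and 3 hpi and at no other time.

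At 48 hpi C/EBPα was called at 3 *Bcl2* sites, +145.1 kb, +86.9 kb and +18.4 kb, and of these only +18.4 kb had also been called at 3 hpi. C/EBPα at +18.4 kb read 2.26, 4.82, 11.5, 18.4, 13.5, 26.8, 27.7 and 15.1, PU.1 15.6, 18.3, 20.5, 21.1 and 23.9, and C/EBPβ 0, 1.71, 24.1, 25.6 and 57.2, the most C/EBPβ of the locus. All 3 factors were called there at 48 hpi. With no C/EBPβ read at 0 hpi, the 48 hpi value was set against 3 reads in the 0 hpi library. It was 8.16 times these, which is not a lower limit of the ratio. At the start of *Bcl2*, +0.5 kb, PU.1 read 5.67, 18.3, 24.3, 14.1 and 9.56.

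*Mcl1* encodes a short-lived anti-apoptotic protein that myeloid cells need. Its locus (chr3:95442643-95487099) held 19 sites and the highest PU.1 value at a single site, though the ratio to that of *Gadd45a* was 1.11 (0.854 to 1.44), within counting error. At -13.3 kb PU.1 read 96.4, 139.9, 123, 117 and 116, and the window holds 2 PU.1 motif matches. C/EBPα was called there in the 12 hpi library alone, at 11.7 (4.72 to 24.2).

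At *Mcl1* -7.9 kb all 3 factors met. PU.1 read 102, 143, 111, 89.0 and 157, C/EBPα 4.51, 4.82, 30.0, 44.5, 62.9, 65.3, 44.8 and 46.5 and C/EBPβ 0, 20.5, 17.2, 44.8 and 65.0. C/EBPα at 3 hpi was 13.9 (5.21 to 52.6) times the 0 hpi value and at 48 hpi 0.739 (0.482 to 1.12) times the 3 hpi value. Here C/EBPα arrived at a place that PU.1 already held, and PU.1 reads at 48 hpi were 1.53 (1.16 to 2.05) times those of 0 hpi, under the 2-fold limit although the interval leaves out 1.

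Another *Mcl1* site kept C/EBPα without PU.1 at the start. At +10.5 kb C/EBPα read 5.64, 9.63, 33.8, 30.7, 24.3, 35.2, 35.6 and 28.9, with no PU.1 read at 0 hpi and 21.5 (13.6 to 32.2) at 12 hpi. *Mcl1* -4.9 kb was a C/EBPβ site of late times, with 4.67, 3.42, 31.0, 76.9 and 47.3, and C/EBPα there read 3.38, 3.21, 0, 1.02, 7.19, 18.4, 14.5 and 18.9. At the start of *Mcl1* PU.1 read 34.0, 50.2, 82.1, 49.3 and 42.0, the strongest site at a start among the 10 genes, and C/EBPα 4.51, 1.61, 2.31, 2.05, 4.49, 16.8, 14.5 and 13.8, called at 12, 24 and 48 hpi.

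*Dusp1* encodes a nuclear phosphatase that switches off p38 and JNK and restrains inflammatory output of macrophages. Its locus (chr17:26622535-26665464) held 10 sites, none of PU.1 before 12 hpi. C/EBPα at -4.1 kb read 4.51, 2.81, 8.46, 26.6, 77.3, 78.7, 67.2 and 61.6. It was still at 8.46 at 30 min, when the strongest sites of *Socs3* and *Stat3* stood at 133 and 152, and the 3 hpi value was 17.1 (6.45 to 64.3) times that of 0 hpi. At 48 hpi it was 0.797 (0.549 to 1.14) times the 3 hpi value, and C/EBPβ at this site read 2.34, 32.5, 20.7, 44.8 and 94.6. PU.1 did not exceed 6.69 there, which leaves *Dusp1* -4.1 kb among the 40 sites of the loci that were called for a C/EBP factor and never for PU.1 (28.6%, against 26.2% of all sites).

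*Dusp1* +10.7 kb appeared at 12 hpi with all 3 factors together. C/EBPα read 4.51, 1.61, 3.08, 0.512, 7.19, 40.2, 48.8 and 35.2, C/EBPβ 4.67, 0, 24.1, 48.0 and 67.0 and PU.1 2.84, 10.6, 49.5, 67.8 and 68.8. The ratio of 48 to 3 hpi was 4.90 (2.17 to 12.4) for C/EBPα, and PU.1 at 48 hpi was 24.3 (6.48 to 204) times its 0 hpi value. Of the 6 sites in all loci with higher C/EBPα at 48 than at 3 hpi, 3 were in *Dusp1*, at +11.1, +10.7 and -6.6 kb. C/EBPα was not called at +11.1 kb at 48 hpi, and the part of the neighbouring +10.7 kb peak in its reads was not tested. PU.1 was gained in the same locus at +11.1, -5.9 and -8.8 kb, where it reached 46.8, 35.4 and 18.2 at 48 hpi. Within the gene, +0.4 kb was called for PU.1 at 12 hpi alone, with 7.47.

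*Gadd45a* encodes a small stress protein that binds a kinase upstream of p38 and JNK and takes part in growth arrest. In its locus (chr6:66965090-67007451) C/EBPα was higher at 3 than at 0 hpi at 6 of 14 sites, against 17.6% of all sites in the genome. It was lower at 48 than at 3 hpi at 6 sites, against 13.2%. The sites were not all the same: -18.8 kb was called higher but not lower, and +12.7 kb lower but not higher. At +1.9 kb, in an untranslated region of the gene, C/EBPα read 2.26, 12.4, 60.8, 82.4, 107, 63.7, 31.6 and 17.6. The 3 hpi value was 47.4 (12.8 to 396) times that of 0 hpi and the 48 hpi value 0.165 (0.0873 to 0.287) times that of 3 hpi. C/EBPβ read 4.67, 85.6, 13.8, 28.8 and 23.7 and thus also peaked at 3 hpi.

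*Gadd45a* +9.6 kb was similar in shape and later in its rise, with 1.13, 2.81, 9.23, 18.9, 80.9, 33.5, 13.2 and 6.29 normalised C/EBPα reads and C/EBPβ reads of 4.67, 30.8, 13.8, 22.4 and 19.7. Neither of these sites was called for PU.1. PU.1 in the locus was concentrated at -18.8 kb, in an intron of the gene model *E230016M11Rik*, with 105, 141, 103, 56.4 and 108. Around the start, PU.1 at +0.1 kb read 2.84, 10.6, 25.2, 14.1 and 5.73 and at +0.3 kb 8.51, 1.52, 17.7, 12.3 and 7.64.

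*Gadd45b* encodes a relative of GADD45A that NF-κB induces. Its locus (chr10:80372836-80414949) held +5.4 kb, the only site of the 140 called in all 8 C/EBPα libraries (0.714%, against 0.964% of all sites). C/EBPα read 25.9, 28.9, 93.1, 90.1, 80.9, 98.9, 62.0 and 52.8 there, and C/EBPβ 18.7, 8.56, 34.5, 57.6 and 74.9, called at 0 hpi as well. The 3 hpi value of C/EBPα was 3.12 (1.95 to 5.17) times that of 0 hpi. PU.1 at +5.4 kb was not called at 0 hpi and read 8.51, 31.9, 24.3, 11.5 and 10.5. The signal at 0 hpi was thus present before hormone was added, and the antibody does not tell the fusion protein from other C/EBPα.

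*Gadd45b* +3.8 kb, the other site called at 0 hpi, read 15.8, 6.42, 20, 23.0, 44.0, 45.2, 26.4 and 22.6 for C/EBPα and 14.0, 13.7, 20.7, 76.9 and 112 for C/EBPβ. C/EBPβ was higher there at 48 than at 0 hpi, 8.02 (3.47 to 22.8) fold. The strongest PU.1 site of the locus, +13.1 kb, read 25.5, 45.6, 56.9, 58.2 and 34.4, and *Gadd45b* +21.9 kb lost PU.1, with 19.9, 18.3, 14.9, 3.52 and 1.91. Near the start, -1.0 kb was called for PU.1 at 0 hpi (11.3), and +0.2 kb reached 20.1 (12.4 to 30.7) for PU.1 at 48 hpi.

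**Figure D4:**
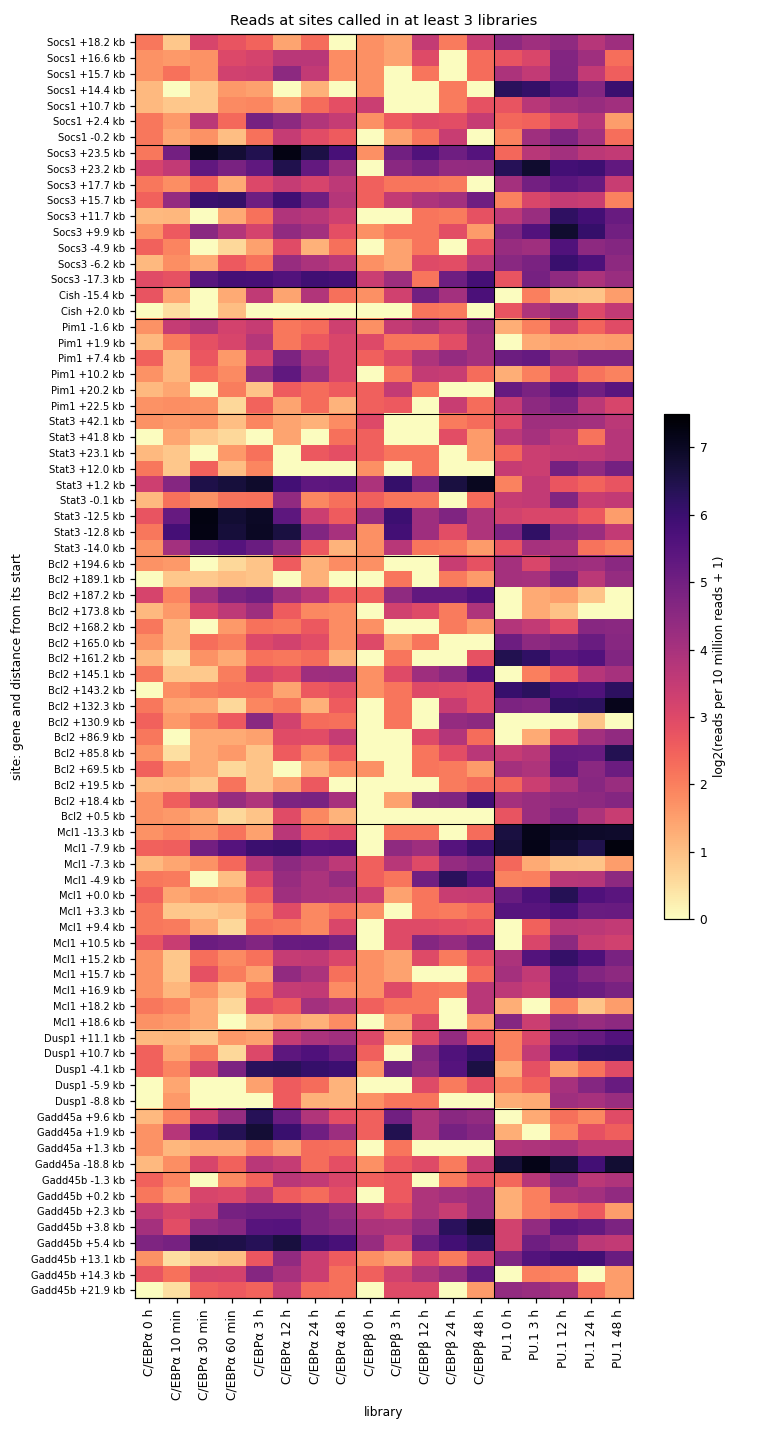
Heat map of log2(normalised reads + 1) at the 80 sites called in at least 3 libraries (rows, grouped by gene and named by distance from its start) in the 18 libraries (columns, by factor and time). C/EBPα columns are pale at 0 hpi except at *Gadd45b* +3.8 and +5.4 kb, and the darkest PU.1 rows are *Mcl1* -13.3 kb, *Mcl1* -7.9 kb and *Gadd45a* -18.8 kb.

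The order of the loci by their highest C/EBPα value was *Stat3* (152 normalised reads), *Socs3* (149), *Gadd45a* (107), *Gadd45b* (98.9), *Dusp1* (78.7), *Mcl1* (65.3), *Pim1* (38.5), *Bcl2* (32.4), *Socs1* (28.8) and *Cish* (13.2). Among neighbours in this order the ratio was above counting error for *Socs3* over *Gadd45a*, 1.39 (1.05 to 1.85), and for *Socs1* over *Cish*, 2.18 (1.05 to 4.97), and the intervals of the other 7 ratios included 1. The highest values come from different libraries in part, 12 and 3 hpi for *Socs3* and *Gadd45a*, and within the 3 hpi library *Socs3* +23.5 kb stood at 85.4 and *Gadd45a* +1.9 kb at 107, so the order describes maxima and not 1 time. For PU.1 the order was *Mcl1* (157), *Gadd45a* (141), *Bcl2* (137), *Socs3* (114), *Socs1* (76.6), *Stat3* (71.5), *Dusp1* (68.8), *Gadd45b* (58.2), *Pim1* (42.9) and *Cish* (18.7). Here the neighbours whose ratio was above counting error were *Socs3* over *Socs1*, 1.49 (1.04 to 2.15), and *Pim1* over *Cish*, 2.30 (1.33 to 4.10). The *Socs3* and *Socs1* maxima are of 3 and 0 hpi, and at 0 hpi both sites stood close, at 80.8 and 76.6. The highest C/EBPβ values were those of *Stat3* (130), *Gadd45b* (112) and *Dusp1* (94.6), and the lowest that of *Socs1* (17.7). Among neighbours in the C/EBPβ order only the ratio of *Cish* over *Socs1*, 2.89 (1.31 to 7.01), was above counting error. In each order the values are maxima picked over sites and libraries, and the intervals take neither this choice nor the sorting into account.

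From 3 to 48 hpi more sites gained than lost C/EBPβ, and more lost than gained C/EBPα, in the 10 loci as over all sites in the genome. C/EBPβ was higher at 48 than at 3 hpi at 27 of 140 sites (19.3%, against 10.0% of all sites) and lower at 4 (2.86%, against 1.24%), while C/EBPα was lower at more sites than it was higher, as given above. At 7 sites C/EBPα was lower and C/EBPβ higher (5.00%, against 1.37%), and at none the reverse. These were *Socs3* +15.7 kb, *Bcl2* +187.2 kb, *Bcl2* +130.9 kb, *Mcl1* +4.6 kb, *Dusp1* -1.1 kb, *Gadd45a* +12.7 kb and *Gadd45b* +14.3 kb, of which *Mcl1* +4.6 kb, *Dusp1* -1.1 kb and *Gadd45a* +12.7 kb were never called for C/EBPα. *Mcl1* +4.6 kb was called for PU.1 alone, and *Dusp1* -1.1 kb for C/EBPβ only at 24 hpi. Both C/EBP factors were lower at 48 than at 3 hpi at others, among them *Stat3* -12.8 kb. The difference between the factors was not tested. Reads of the fusion protein and of the cells' own C/EBPα cannot be told apart here.

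**Figure D5:**
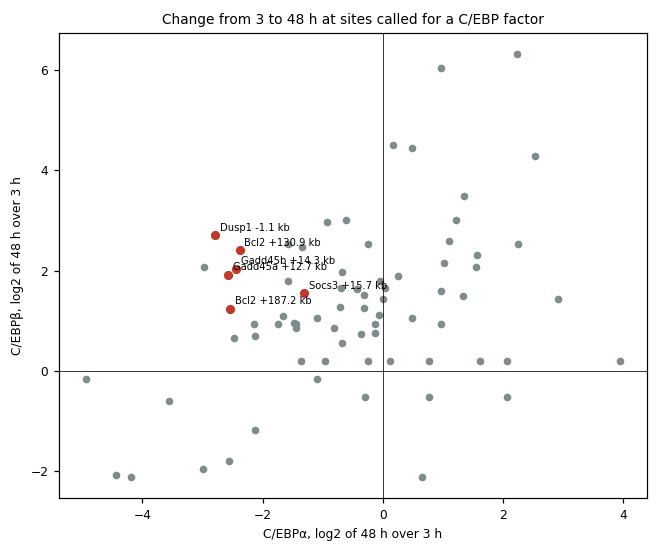
Change from 3 to 48 hpi at the 75 sites called for a C/EBP factor, as log2 of the ratio of normalised reads with 0.5 reads added, for C/EBPα (x axis) and C/EBPβ (y axis). At 39 sites the point lies left of 0 for C/EBPα and above 0 for C/EBPβ, and red points are the 6 of these sites with both changes called.

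Summed over whole loci, most of whose length lies between sites, the changes were smaller. Normalised C/EBPα reads per kb went from 6.10 (5.33 to 6.94) at 0 hpi to 13.8 (12.8 to 14.9) at 3 hpi in *Gadd45a* and from 9.31 (8.38 to 10.3) to 16.5 (15.4 to 17.7) in *Socs3*. In *Socs1* they went from 8.05 (7.17 to 9.02) to 7.88 (7.10 to 8.73) and in *Cish* from 5.52 (4.83 to 6.29) to 4.94 (4.35 to 5.58), the 2 loci where the value was not higher at 3 hpi. In *Bcl2* they went from 5.04 (4.73 to 5.37) to 6.10 (5.79 to 6.42). PU.1 in *Dusp1* went from 5.12 (4.35 to 5.99) at 0 hpi to 12.0 (11 to 13.1) at 48 hpi.

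Reads within 500 bp of the gene starts differed between genes and between libraries. In the 12 hpi library PU.1 ranged from 8.40 to 126.9 over the 10 starts. C/EBPα was highest in the 12 hpi library at 6 of 10 starts, against 37.0% of the 21719 protein-coding starts with reads, and PU.1 at 8 of 10, against 44.9% of 21585. C/EBPβ was highest at 12 hpi at none of the 10, against 19.2% of 21387. At the start of *Stat3*, for example, C/EBPα read 26.1, 58.6 and 20.1 at 3, 12 and 48 hpi, and PU.1 at the start of *Mcl1* read 53.9, 127 and 64.0 at 0, 12 and 48 hpi. The mean over all 22358 starts was also highest at 12 hpi, at 13.9 for C/EBPα, against 9.30 at 3 hpi and 10.5 at 48 hpi, and 21.0 for PU.1, against 12.1 at 0 hpi. The mean of C/EBPβ was 6.88 at 12 hpi and highest at 48 hpi, at 10.0. The 12 hpi libraries of C/EBPα and PU.1, but not that of C/EBPβ, thus had the highest mean at starts in general, and several weak start sites of *Socs1*, *Socs3*, *Cish* and *Dusp1* were called at 12 or 24 hpi. The part of the libraries in these calls was not tested.

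STAT motif letters were frequent in these loci. TTCNNNGAA was found within 100 bp of the centre of 21 of 140 (15.0%, exact interval 9.53% to 22.0%) sites, where 6.86% of all 106128 sites held it. Among the 66 C/EBPα sites the motif was in 14 of 66 (21.2%, exact interval 12.1% to 33.0%), against 8.0% of all C/EBPα sites. It was concentrated in the *Socs1*, *Socs3* and *Cish* loci, in 13 of 40 sites (32.5%), and the other 7 loci had it in 8 of 100 (8.0%), near the genome share, a split made after the values were seen. Sites within a locus share base composition, so the interval describes counting alone. STAT binding itself was not measured.

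The C/EBP letters TTGCNNAA were in 18 of 66 (27.3%, exact interval 17.0% to 39.6%) C/EBPα sites, against 30.6% of all C/EBPα sites, and in 10 of 40 (25.0%, exact interval 12.7% to 41.2%) C/EBPβ sites, against 40.4%. GAGGAAGT was in 17 of 100 (17.0%, exact interval 10.2% to 25.8%) PU.1 sites, against 23.3%. TGANTCA, bound by AP-1, was in 21 of 140 (15.0%, exact interval 9.53% to 22.0%) sites of any factor, against 9.67%. In 1 member site matches of different motifs overlapped. *Stat3* +1.2 kb, *Dusp1* -4.1 kb and *Gadd45b* +5.4 kb hold TTGCNNAA, and *Gadd45a* +1.9 kb and *Dusp1* +10.7 kb hold none of the 4 motifs.

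A wider list of 36 genes of the same pathways (other SOCS, JAK, STAT, PIM, BCL2, DUSP and GADD45 genes) gave the setting. A C/EBPα site was called in 14 of 36 loci at 0 hpi, 32 at 3 hpi and 21 at 48 hpi, against 15.3%, 48.1% and 32.5% of all protein-coding loci. A C/EBPβ site was called in 32 at 48 hpi, against 42.4% of all loci, and a PU.1 site in 35 at 0 hpi, against 63.5%. All 6 other STAT genes had a C/EBPα site at 3 and at 48 hpi. The 5 other SOCS genes all had one at 3 hpi and 2 of them at 48 hpi. The Pim kinase genes *Pim2* and *Pim3* had none at 0, 3 or 48 hpi. Of the 11 other BCL2 family genes, 6 had a site at 0 hpi, 11 at 3 hpi and 7 at 48 hpi. The loci with the most C/EBPα sites at 48 hpi, 4 each, were those of *Stat6*, the factor of interleukin-4 signals, and of the pro-apoptotic *Bax*, *Pmaip1* and *Bmf*.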

How the data were processed

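The authors aligned the ChIP-seq reads to mouse mm9 and, per the labels, used Bowtie and HOMER. They deposited 1 line per aligned read (chromosome, start, end, strand), and every count here was made from these lines. Reads sharing position and strand (2.51% at most, in the C/EBPα library of 3 hpi) were counted once, and 5′ ends were moved 75 bp inward. Sites were called with the rules of HOMER rebuilt in Python 3.11.15 with numpy 2.4.6 and scipy 1.17.1: a 200-bp window with a Poisson p of at most 1e-07 over a genome of 2000000000 bp, 4 times the density of the surrounding 10 kb at a local p of at most 0.0001, and maxima 400 bp apart. Calls within 200 bp were merged over libraries. In 58 of 563 calls the merged centre held fewer reads than the call needed. Caller and counts were tested on simulated data. Genes were those of GENCODE vM1, and sequences those of the mm9 genome (NCBIM37).

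The 10 genes, the 36 further genes and the motifs were chosen with earlier results of these data known. Per locus, the site with most reads of each factor and sites within 1 kb of the start are given, and further sites were chosen after their values were seen. PU.1 libraries of 10, 30 and 60 min were not analysed here. Alternatives were other p values, depths, borders, windows, scaling and density limits.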

Additional observations from a re-analysis of the deposited data

Results flagged for a closer look

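Between 3 and 48 hpi the reads of C/EBPα and C/EBPβ called as changed went in opposite directions at 7 of the 140 sites, with C/EBPα lower and C/EBPβ higher. This is 5.00% of the sites, where 1.37% of all 106128 sites of the genome did the same. Of these sites, *Mcl1* +4.6 kb, *Dusp1* -1.1 kb and *Gadd45a* +12.7 kb were never called for C/EBPα, and *Mcl1* +4.6 kb was called for neither C/EBP factor. More of the member sites were called for C/EBPα (47.1%, against 38.9%) and C/EBPβ (28.6%, against 18.2%), and the part of this in the difference was not tested. Each factor had 1 library per time, and the difference between the factors was not tested. Other results could not be screened for a sample that stands apart from its group, since no group held more than 1 library.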

How the results depend on the processing

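Of 77 recomputed results, 62 kept their value within 1.5 times (counts) or within the counting interval (pooled log2 ratios), and 15 moved. No pooled log2 ratio changed direction, and direction was not defined for the counts. With a Poisson p of 1e-05 the sites called at 0 hpi numbered 5 for C/EBPα and 5 for C/EBPβ in place of 2 each, and 1 each once the libraries of each factor were thinned to equal depth. C/EBPβ sites at 48 hpi fell from 36 to 23 at a p of 1e-09 and to 21 after thinning. Borders of 10 kb, which remove part of each locus, left 22 C/EBPα sites at 3 hpi, 1 C/EBPβ site at 0 hpi and 20 PU.1 sites at 0 hpi, and gave pooled log2 ratios of 1.91 for C/EBPα from 0 to 3 hpi, -0.52 for C/EBPα from 3 to 48 hpi and 0.86 for PU.1. Reads within 200 bp gave 1.95 for C/EBPα from 0 to 3 hpi and 1.84 for C/EBPβ (the cause was not tested), and all reads as deposited gave -0.90 for C/EBPα from 3 to 48 hpi. Among the alternatives chosen after seeing the data, leaving out the PU.1 library of 12 hpi left 136 of 140 sites, and 103 sites were called in at least 2 libraries. No paired analysis was possible because each factor and time point had 1 library and no test was made. Depth limits the C/EBPβ libraries most, where 3 reads correspond to between 5.13 and 10.3 normalised reads.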
